A study of Mus musculus with 15 samples.

Results

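Binding of NRL was followed at 1151 peaks that lie in the second or a later intron of a gene and more than 3 kb from the nearest annotated transcription start site (TSS). They were taken from the deposited table of 8996 peaks by their annotation alone, as every peak placed in an intron other than the first with a distance to the TSS over 3000 bp in either direction, and made up 12.8% of the table. Of the other peaks, 567 (6.30%) lay in a first intron beyond 3 kb, 1242 (13.8%) between genes beyond 3 kb, 368 (4.09%) in exons, UTRs or downstream of genes, and 5668 (63.0%) within 3 kb of a TSS. Just inside the distance limit were a peak in Slc6a17 at 3035 bp, with 8.67 to 35.8 RPKM at P2 and P4 and 0 to 2.53 RPKM at P10 and P28, and one in Nrf1 at 3036 bp with 0 to 9.36 RPKM over all libraries. Just outside were peaks in Herc4 at 2998 bp, with 0 to 6.18 RPKM, and in Ift122 at 2990 bp, with 0.343 to 8.79 RPKM.

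The libraries came from C57BL/6J mouse retinas taken on postnatal days 2 (P2), 4 (P4), 10 (P10) and 28 (P28), with no other allele or treatment named. In CUT&RUN an antibody, here against NRL, tethers a nuclease to its target inside permeabilised cells, and DNA close to the protein is released and sequenced, and 250000 dissociated retinal cells were used per experiment. Of 15 labelled libraries, 8 had values in the peak table: P10 replicates 1 and 4, and replicates 3 and 4 of the other ages. No untreated or antibody control was among them, and whether replicates are separate animals is not stated in the labels, so p-values measure the spread between these libraries, which may be technical.

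NRL is a basic leucine zipper (bZIP) protein of the Maf family. It is made in newborn rods and in rods throughout life, it acts with the homeodomain protein CRX to switch on rod genes, and photoreceptor precursors that lack it become cone-like cells. Maf proteins bind DNA as dimers at sites built from the half-site TGCTGA. Introns often hold enhancers, which can act on their host gene or on another gene nearby. Since whole retina was used, a higher signal from a peak in each rod and a larger share of rods among the cells cannot be told apart.

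Sequence could be read for the few peaks that reach the 300-base window around a RefSeq gene start (250 bases before it to 50 after, GRCm38.p6). Of the 1151 peaks, 6 overlapped such a window, each at a start of a different gene from the one assigned in the deposited annotation, so their place beyond 3 kb holds for that annotation only. The windows that contain a whole peak are shown because they give the bases under it. The first peak lies in intron 17 of Eml6 (chr11:29808624-29808904) and in the window of Gm39671 (chr11:29808615-29808914, plus strand). The second lies in intron 2 of Map3k13 (chr16:21845832-21846112), a kinase gene of stress signalling, and in the window of Gm26744 (chr16:21845816-21846115, minus strand). Capitals mark the Maf half-site TGCTGA and the CRE core TGACGT, the site of CREB and related bZIP factors, searched on both strands.
Gm39671 window: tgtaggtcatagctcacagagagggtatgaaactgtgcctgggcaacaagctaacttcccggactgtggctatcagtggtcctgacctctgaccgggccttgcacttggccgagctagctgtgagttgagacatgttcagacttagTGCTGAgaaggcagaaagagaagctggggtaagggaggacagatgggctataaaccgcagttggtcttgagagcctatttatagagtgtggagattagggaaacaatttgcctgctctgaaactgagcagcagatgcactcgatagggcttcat
Gm26744 window: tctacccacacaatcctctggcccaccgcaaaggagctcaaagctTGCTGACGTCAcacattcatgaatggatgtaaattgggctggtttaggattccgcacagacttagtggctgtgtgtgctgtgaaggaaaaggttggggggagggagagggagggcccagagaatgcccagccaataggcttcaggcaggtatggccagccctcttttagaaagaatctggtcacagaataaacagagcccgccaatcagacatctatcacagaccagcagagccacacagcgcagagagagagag

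The Gm39671 window held 1 match to TGCTGA. The Gm26744 window held 1 match to TGCTGA and 2 to TGACGT, 1 on each strand, and all 3 overlap in the run TGCTGACGTCA. Among 32544 distinct windows of the same length, 19.5% held TGCTGA, 4.65% the longer TGCTGAC and 7.55% TGACGT, so a match to the half-site alone is common. Windows overlapping the other 4 peaks held none of these letters, and neither TGANTCA (an AP-1 site, in 7.79% of windows) nor GGATTA (the site of CRX and OTX2, in 7.06%) was found in any of the 6. A match is a description of the sequence and not a measured site. The peak in Map3k13 gave 1.34 and 2.71 RPKM (P2), 0 and 3.05 (P4), 7.29 and 9.32 (P10) and 3.86 and 1.17 (P28). Its P10 libraries lay above all others, and P10 exceeded P4 by 2.20 ± 0.57 on the log2(RPKM + 1) scale (SE; limma, adjusted p = 0.0142), a call lost without P4 replicate 3 (1.19, adjusted p = 0.285), P10 replicate 1 (adjusted p = 0.0647) or P10 replicate 4 (adjusted p = 0.0856), or with libraries set to the same median (adjusted p = 0.119). The Eml6 peak gave 4.93 and 9.48 RPKM (P2), 12.2 and 17.8 (P4), 8.97 and 8.88 (P10) and 6.06 and 4.08 (P28), highest at P4, and passed the test in none of the 4 age comparisons below.

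The peak with the strongest mean signal among the 1151 is assigned to a microRNA gene, Mir182, of the miR-183/96/182 cluster that is abundant in photoreceptors. Their mature sequences (RefSeq, GRCm38.p6, minus strand of chromosome 6) are shown because Mir182 starts 18522 bp from that peak, with the seed (bases 2 to 8) in capitals.
miR-182-5p: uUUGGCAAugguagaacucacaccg
miR-96-5p: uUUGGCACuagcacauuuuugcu
miR-183-5p: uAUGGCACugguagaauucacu

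No 2 of the 3 seeds are the same, and all hold the run UGGCA. The peak itself (chr6:30147116-30147470) lies in intron 11, the last, of Nrf1, the gene of a respiratory transcription factor. It gave 41.2 and 62.2 RPKM (P2), 52.2 and 105 (P4), 201 and 140 (P10) and 72.9 and 89.0 (P28). The P10 libraries were above all others, both P28 libraries were above both P2 libraries, and the P4 libraries overlapped those of P2 and P28. It passed in none of the 4 age comparisons made, with 1.16 ± 0.55 for P10 over P4 (adjusted p = 0.132) and -1.05 ± 0.55 for P28 over P10 (adjusted p = 0.166). P10 was not tested against P2.

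The peaks were narrow and mostly weak. Their widths ran from 93 to 910 bp with a median of 239 bp, against 322 bp for the whole table, and their distance to the assigned TSS ran from 3035 to 564524 bp with a median of 18303 bp. By distance, 321 lay at 3 to 10 kb, 568 at 10 to 50 kb and 262 beyond 50 kb. Intron 2 held 325 of them, the last intron of the transcript 182, and the median intron number was 4 with a highest of 83. Mean signal over the 8 libraries ran from 0.851 to 95.4 RPKM with a median of 4.64 RPKM. A RefSeq name was found for the host gene of 1079 peaks, in 843 genes, of which 677 held 1 peak and 166 held 2 or more. The assigned gene was the host for 841 peaks (73.1%) and another gene for 310. Assigned genes were protein-coding for 1034 peaks, long non-coding for 83 and microRNA genes for 25.

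The number of reads in peaks differed between libraries. Reads inside all peaks numbered 49430 to 85740 in the P2 libraries and P4 replicate 3, 150878 in P4 replicate 4, 195736 and 227692 at P10, and 98186 and 92360 at P28. The 1151 peaks took 6070 to 29001 of these, with a median of 3 or 4 reads per peak at P2 and P28, 5 and 9 at P4, and 12 and 15 at P10. Between 15 and 126 of the peaks had no read in a given library, and 3 reads in a peak of median width correspond to 1.57 to 2.39 RPKM. Replicate signals across these peaks, which are not independent, had a Pearson r of 0.68 (P2), 0.77 (P4), 0.89 (P10) and 0.70 (P28). The library scales, by which reads are divided for RPKM, were 7939649 and 5255776 (P2), 7875100 and 7002947 (P4), 6346169 and 8014723 (P10) and 6455953 and 6107971 (P28). Reads in peaks thus moved with age while the library scales did not follow it. The part of either in the results was not tested.

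Most of these peaks were called by the authors at P10. Of the 1151, 152 (13.2%) overlapped the deposited P2 list, 370 (32.1%) the P4 list, 956 (83.1%) the P10 list and 244 (21.2%) the P28 list. Over all 8996 peaks the shares were 13.5, 35.0, 83.2 and 38.6% in the same order of ages, so the shares were close up to P10, and at P28 that of later-intron peaks was lower. There peaks within 3 kb of a TSS reached 48.2% and first-intron peaks 18.9%. The lists differ in length, with 1221, 3161, 7520 and 3482 peaks. When the 1221 strongest of each were used, chosen by the authors' signal within each list, the later-intron counts became 152, 186, 228 and 124. These are 13.2, 16.2, 19.8 and 10.8% of later-intron peaks, against 13.5, 13.6, 13.6 and 13.6% of all peaks. For first-intron peaks the shares were 10.9, 14.5, 18.3 and 8.29%, also highest at P10 and lowest at P28. Peaks found in the P10 list alone numbered 609 (52.9%, against 41.9% of all peaks), those in all 4 lists 49 (4.26%, against 7.41%), and those in the P28 list alone 58 (5.04%, against 8.70%). Each age has 1 list, made by the authors, so these are descriptions with no replicate error.

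The share of a library's in-peak reads that fell in later-intron peaks does not depend on how libraries were scaled. It was 9.55 and 12.3% (P2), 10.9 and 12.5% (P4), 12.9 and 12.7% (P10) and 8.53 and 9.49% (P28). The mean was 10.9 ± 1.93% (P2), 11.7 ± 1.15% (P4), 12.8 ± 0.101% (P10) and 9.01 ± 0.676% (P28) (SD, n = 2 each). Both P28 libraries lay below every other library, and P28 lay 3.80 points below P10. Across the 4 ages the share did not pass an exact permutation test over the libraries (p = 0.0952, adjusted 0.0952 over 2 tests, smallest possible 0.00952). When the median log2 difference between these peaks and all peaks was used in place of summed reads, P28 lay 0.61 below P10 and the test reached that smallest value.

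Relative to first-intron peaks beyond 3 kb, the class most like them, later-intron peaks took fewer reads at P28 than at P2. The log2 ratio of reads in later-intron to reads in first-intron peaks was 1.01 and 1.01 (P2), 0.95 and 0.98 (P4), 0.87 and 0.89 (P10) and 0.88 and 0.82 (P28). The P2 libraries were highest, the P4 libraries next, and the P10 and P28 libraries overlapped. The means were 1.01, 0.96, 0.88 and 0.85 from P2 to P28, and P28 lay 0.16 below P2 (exact permutation test across ages, p = 0.0190, adjusted 0.0381 over 2 tests). With median log2 signal in place of summed reads the difference was 0.11, and the test across ages no longer passed (exact permutation test, p = 0.0571). The highest mean was then that of P4 (0.18, against 0.13 at P2). With only peaks beyond 10 kb in both classes, the means were 1.27, 1.22, 1.12 and 1.17 from P2 to P28 (exact permutation test, p = 0.0381), so that P10 and not P28 was lowest.

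**Figure D1:**
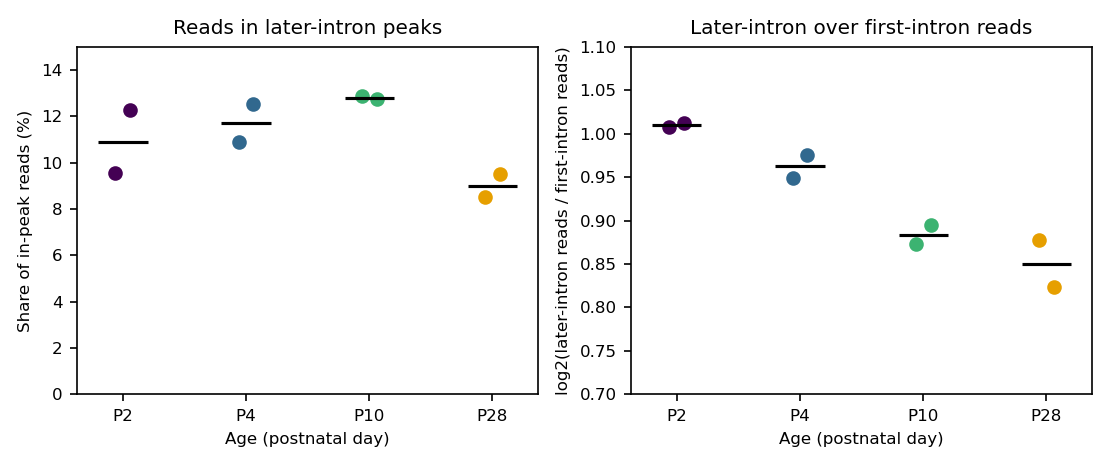
The left panel plots, for each of 8 libraries by age, the percentage of in-peak reads that fell in later-intron peaks beyond 3 kb, and the right panel the log2 ratio of reads in later-intron to first-intron peaks, with a line at the mean of each age. The left axis starts at 0 and the right one does not. P28 libraries have the lowest shares (8.53 and 9.49%), and the ratio is highest at P2 (1.01 in both libraries).

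Signal per peak was compared between ages as log2(RPKM + 1), where RPKM is reads divided by the peak's length in kilobases and by the library's scale. A peak is called at an adjusted p under 0.05 in limma, fitted to all 8996 peaks and 8 libraries. No later-intron peak passed for P4 against P2 (0 called), as over the whole table (0% of all peaks). At an unadjusted p under 0.05 there were 241 higher (20.9%, against 14.4% of all peaks) and 20 lower (1.74%, against 0.778%) at P4, and with limma-voom on recovered reads 4 peaks were called. Leaving out P4 replicate 3 gave 183 calls, and leaving out P2 replicate 3, P2 replicate 4, P28 replicate 3 or P28 replicate 4 gave 41, 11, 36 or 37. The lowest p-values belonged to peaks with few reads at P2. A peak in intron 8 of Ndufaf5, which encodes an assembly factor of respiratory complex I, gave 3.79 and 7.10 RPKM at P4 and 0 in both P2 libraries. The values for a peak in intron 3 of Fam234b were 2.99 and 4.71 RPKM at P4 and 0 in both at P2. Both had an adjusted p of 0.0557, as did a peak in intron 9 of Galnt13 with 2.40 and 10.8 RPKM at P4 and no read at P2.

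Between P4 and P10 most called later-intron peaks gained signal. Peaks in the P10 list alone, 52.9% of later-intron peaks and 41.9% of all peaks, are in the table because of their P10 signal. A gain up to P10 and a loss after it are therefore partly built in, and how far was not tested. At P10, 313 of the 1151 peaks were higher than at P4 and 36 were lower, together 30.3%, against 17.1% of all peaks called (15.6% higher, 1.51% lower). The median difference was 1.04 among later-intron peaks and 0.73 over all peaks. In first-intron peaks the called share was 36.7%, and within 3 kb of a TSS 10.4%. This direction depends on the scale. When every library was set to the same median, which lowers each P10 to P4 difference by 0.71, 59 were higher and 80 lower (2.88% and 3.26% of all peaks, together 6.14%), and limma-voom on reads scaled to the total in peaks gave 95 higher and 139 lower. On both the library scale and the common median, 59 peaks were called higher and 36 lower. The count rests on single libraries, with 51 calls without P4 replicate 3, 564 without P4 replicate 4, 54 without P10 replicate 1 and 104 without P10 replicate 4, and 4 with a pseudocount of 0.1 in place of 1. Of the 313 and 36, 19 and 3 kept their call whichever 1 of the 8 libraries was left out.

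P4 replicate 4 stood above P4 replicate 3 at 991 of the 1151 peaks and below it at 156, so the P4 level of a peak is a wide range. The named gains were at peaks with little signal at P4. A peak in intron 5 of Gnb1 (chr4:155538179-155538460), which encodes the beta subunit of rod transducin, gave 49.2 and 24.3 RPKM at P10 and 1.80 and 3.54 at P4. Both P10 libraries were far above both P4 libraries, by 3.32 ± 0.55 (adjusted p = 0.000613). In intron 16 of Thoc5, a gene of mRNA export, a peak assigned to AA413626 gave 80.3 and 67.2 RPKM at P10 and 2.87 and 13.4 at P4, a difference of 3.32 ± 0.61 (adjusted p = 0.0015). The peak assigned to Trib2, a pseudokinase gene 177026 bp away, reached 28.4 and 18.2 RPKM at P10 and 0 and 2.26 at P4, and rose by 3.72 ± 0.54 (adjusted p = 0.000264).

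Other named gains rested on 1 to 4 reads at P4. In intron 5 of Chp1 the scaled reads of a peak assigned to Oip5os1 were 36.3 times higher at P10 than at P4 (exact 95% interval 6.09 to 1473, 35 reads against 1; adjusted p = 9.47e-05). In intron 18 of Bbs9, a subunit of the BBSome that sorts proteins at the cilium, the ratio was 25.9 (4.24 to 1063, 25 reads against 1; adjusted p = 0.000923), and the call was lost without P4 replicate 3 (adjusted p = 0.0563). A peak in intron 10 of Ctif, assigned to Gm10532, rose by 3.19 ± 0.60 (adjusted p = 0.00223, 0.0747 without P4 replicate 3). In each of these the 2 P10 libraries exceeded the 2 P4 libraries, which the rule for naming them required.

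Fewer peaks lost signal between P4 and P10, and the 6 named ones all stood at 0 to 2.43 RPKM at P28. In intron 2 of Dusp10, the gene of a MAP kinase phosphatase, no read was found at P10, against 11.6 and 15.7 RPKM at P4, so that the peak was at least 17.7-fold lower (3 reads over both libraries as the limit; adjusted p = 0.000356). The Slc6a17 peak at the 3 kb limit, in a gene for a vesicular amino acid transporter, gave 1.28 and 2.53 RPKM at P10 and 22.1 and 35.8 at P4, and fell by 3.36 ± 0.54 on the log2 scale (adjusted p = 0.000561). In intron 2 of Sox6, a gene for an HMG-box transcription factor, the values were 1.11 and 0.439 RPKM at P10 and 7.15 and 8.55 at P4. With 3 reads against 33, the P4 signal was 10.6 times the P10 signal (exact 95% interval 3.33 to 54.1; adjusted p = 0.00297, and 0.0754 without P10 replicate 4). The calls at Ldlrad4 (-2.52 ± 0.51), Rad51b (7.08 times lower, interval 2.13 to 36.9, 3 reads against 22) and the peak assigned to Macroh2a1 (-1.96 ± 0.56) were all lost without P10 replicate 1 (adjusted p = 0.0708, 0.113 and 0.188), and the Macroh2a1 call also without P10 replicate 4 (0.101).

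**Figure D2:**
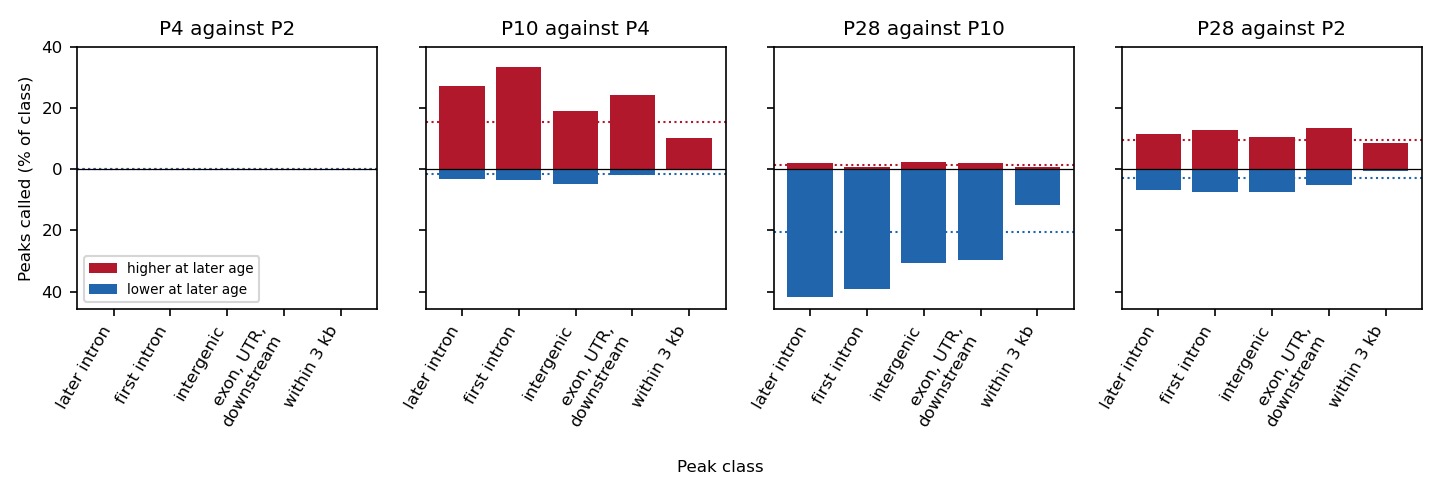
Bars give the percentage of peaks in each class that were called higher (upward) or lower (downward) at the later age in 4 comparisons, with limma on log2(RPKM + 1) at an adjusted p under 0.05, and dotted lines give the percentage over all peaks. Later-intron peaks, at the left of each panel, had 30.3% called for P10 against P4, mostly higher, and 44.0% for P28 against P10, mostly lower. No peak was called for P4 against P2.

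From P10 to P28 the main change was a loss of signal, and it was wider than over the whole table. Both the loss and its width may follow from the larger share of peaks in the P10 list alone (52.9%, against 41.9% of all peaks). This was not tested. At P28, 24 later-intron peaks were higher than at P10 and 482 were lower, together 44.0%, against 21.9% of all peaks called (1.29% higher, 20.7% lower). The median difference was -1.29 among these peaks and -0.69 over all peaks. First-intron peaks had 40.2% called and peaks within 3 kb of a TSS 12.6%. With every library set to the same median the counts were 49 higher and 226 lower (4.28% and 8.56% of all peaks, together 12.8%), and all 226 lower and 24 of the higher were called alike on both scales. In limma-voom on reads scaled to the total in peaks they were 81 and 180. Without P10 replicate 1, P10 replicate 4, P28 replicate 3 or P28 replicate 4 there were 150, 207, 308 or 317 calls, and with a pseudocount of 0.1 there were 144. Whichever library was left out, 3 of the 24 and 96 of the 482 kept their call. The comparisons of P10 with P4 and of P28 with P10 share the 2 P10 libraries and are not independent.

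The named losses were at peaks that were strong at P10 and had almost no reads at P28. In intron 5 of Nsmce2, a gene of DNA repair, a peak assigned to Trib1 (chr15:59565854-59566542) gave 1.80 and 0.713 RPKM at P28 and 86.4 and 48.0 at P10. It fell by 4.90 ± 0.58 (adjusted p = 5.27e-05) and was also called lower than at P2, where it gave 7.49 and 8.84 RPKM, a call lost without P2 replicate 4 (adjusted p = 0.102) or P28 replicate 4 (adjusted p = 0.165). In intron 2 of Nfia (chr4:97816373-97816515), a transcription factor of late progenitors and glia, the values were 1.08 and 1.14 RPKM at P28 and 49.6 and 42.8 at P10. The P10 signal was 41.1 times the P28 signal (exact 95% interval 11.1 to 345, 2 reads at P28 against 94 at P10; adjusted p = 5.27e-05). Gfra1, a receptor for glial-cell-derived neurotrophic factor, had a peak in intron 5 with 0.576 and 6.09 RPKM at P28 and 58.6 and 51.9 at P10, and it fell by 4.07 ± 0.66 (adjusted p = 0.000495).

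At 2 of the named peaks no read was left at P28. Cdhr1 encodes a cadherin at the base of the photoreceptor outer segment, and its intron 4 peak (chr14:37094558-37094709) had 14.5 and 17.2 RPKM at P10, so that P28 was at least 10.2-fold lower (adjusted p = 8.71e-05). In intron 4 of Slc38a1, a glutamine transporter, the P10 values were 17.7 and 15.1 RPKM and the loss at least 7.87-fold (adjusted p = 0.000103). A peak in intron 2 of Agrn, the gene of the synaptic proteoglycan agrin, gave 1.49 and 1.57 RPKM at P28 and 38.9 and 45.2 at P10, a fall by 4.08 ± 0.68 (adjusted p = 0.000666).

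Of the 24 peaks called higher at P28 than at P10, only 1 had a mean signal at or above the median of the class and no overlap between the libraries. It lies in intron 4 of Rrp15 and is assigned to Tgfb2, a growth factor gene, with 6.30 and 16.0 RPKM at P28 and 1.28 and 5.07 at P10. The difference of 1.58 ± 0.57 (adjusted p = 0.0497) did not pass without P10 replicate 1 (0.87, adjusted p = 0.484), P28 replicate 4 (0.97, adjusted p = 0.312), P4 replicate 3 (adjusted p = 0.0684) or P4 replicate 4 (adjusted p = 0.0658).

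Over the whole interval, P28 against P2, gains and losses were closer in number. At P28, 134 later-intron peaks were higher and 77 lower than at P2, together 18.3%, against 12.6% of all peaks called (9.64% higher, 3% lower). The median difference was 0.31, against 0.57 over all peaks. Set to the same median, 60 were higher and 180 lower (3.27% and 7.26% of all peaks, together 10.5%), which turns the balance of directions, as does limma-voom on reads scaled to the total in peaks (56 and 153), and all 60 higher and 77 lower were called alike on both scales. Leaving out P2 replicate 4, P28 replicate 3 or P28 replicate 4 left 127, 133 or 149 calls, and a pseudocount of 0.1 gave 77. Of the 134 and 77, 40 and 19 kept their call whichever library was left out.

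The intron 5 peak of Esrrb (chr12:86507673-86508054, 3264 bp from the nearest start) had the highest fitted gain of those named. Esrrb encodes an orphan nuclear receptor that rods need for survival. Its values were 5.93 and 6.97 RPKM (P2), 12 and 32.9 (P4), 158 and 115 (P10) and 105 and 133 (P28). At P28 against P10 the difference was -0.19 ± 0.56 (adjusted p = 0.83), and P28 exceeded P2 by 4.00 ± 0.56 (adjusted p = 0.000112). Its gain at P10 over P4 was lost without P10 replicate 1 (2.47, adjusted p = 0.0796). Fewer reads lay under the other peaks of Esrrb in later introns. The one in intron 6 averaged 6.86 ± 2.30 RPKM at P28 and 0.575 ± 0.813 at P2 (SD, n = 2 each), and its P28 signal was 9.98 times that at P2 (exact 95% interval 2.41 to 88.3, 19 reads against 2; adjusted p = 0.00356, 0.0533 without P2 replicate 4). The one in intron 2 did not pass in any comparison.

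Several further gains over P2 were, apart from that at Gnb1, in genes not known for phototransduction. The peak in intron 2 of Stk35, a kinase gene, gave 28.2 and 18.7 RPKM at P28 and 0 and 1.28 RPKM at P2, a ratio of 46.2 (exact 95% interval 12.4 to 388, 88 reads against 2; adjusted p = 0.000117). In intron 3 of Rabgef1, an exchange factor of Rab proteins, the values were 18.0 and 19.9 RPKM at P28 and 0 and 1.01 RPKM at P2, a ratio of 47.3 (8.06 to 1908, 45 reads against 1; adjusted p = 8.95e-05). Ybx3, a cold-shock domain gene, had 8.37 and 14.7 RPKM at P28 in its intron 3 peak and no read at P2, at least 5.60-fold higher at P28 (adjusted p = 8.95e-05). The peak in Foxn2, a forkhead gene, gave 16.0 and 13.2 RPKM at P28 and 1.45 and 0 at P2, a ratio of 16.8 (5.42 to 84.3, 48 reads against 3; adjusted p = 0.000277). The Trib2 and Gnb1 peaks named above had ratios of 62.0 (10.7 to 2488, 59 reads against 1) and 24.9 (8.17 to 123, 71 reads against 3), and an intron 6 peak of Camta1 one of 22.1 (3.55 to 912, 21 reads against 1; adjusted p = 0.00211). P28 and P2 libraries did not overlap at any of these, as the rule for naming them required.

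**Figure D3:**
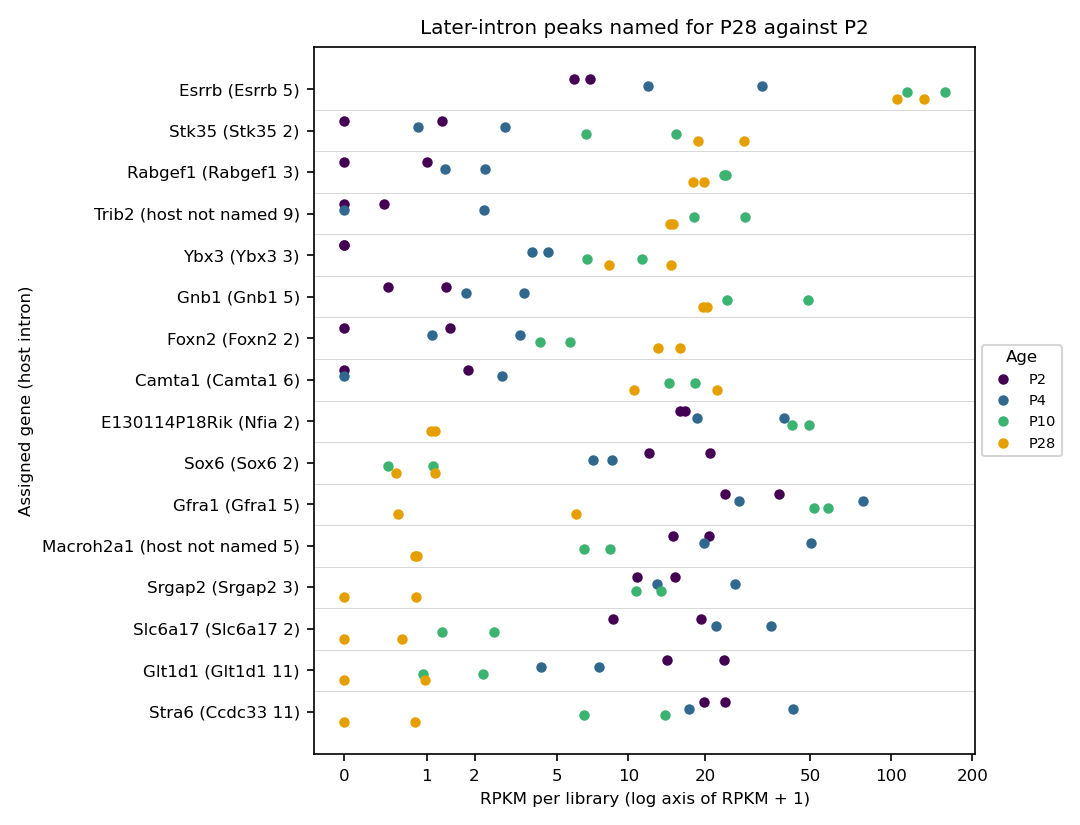
RPKM in each of 8 libraries, on a log axis of RPKM + 1, is plotted for the 16 later-intron peaks named in the comparison of P28 with P2, 8 higher above and 8 lower below, with colour for age. The Esrrb peak reaches 105 and 133 RPKM at P28, against 5.93 and 6.97 at P2, and the peak assigned to Stra6 stands at 0.811 and 0, against 19.8 and 23.9 at P2.

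The 8 named losses at P28 against P2 are given with their values at the ages between. The peak in intron 11 of Ccdc33, assigned to the retinol transporter gene Stra6, gave 19.8 and 23.9 RPKM (P2), 17.3 and 43.4 (P4), 14.0 and 6.53 (P10) and 0.811 and 0 (P28). P2 signal was 51.4 times that at P28 (exact 95% interval 8.84 to 2068, 1 read at P28 against 54 at P2; adjusted p = 0.00012). In the last intron of Glt1d1 the values were already 7.56 and 4.25 RPKM at P4 and 0.938 and 2.23 at P10, compared with 14.2 and 23.8 at P2, and 0 and 0.975 were left at P28. The P2 signal there was 38.1 times the P28 signal (6.45 to 1541, 1 read at P28 against 40 at P2). The Sox6 peak likewise had 1.11 and 0.439 RPKM by P10, and at P28 it was at 0.545 and 1.15, against 20.8 and 12.1 at P2, so that P2 was 20.6 times higher (6.75 to 103, 3 reads at P28 against 65 at P2; adjusted p = 0.00019). By contrast the Srgap2 peak was still at 13.6 and 10.7 RPKM at P10 and dropped to 0.833 and 0 at P28, against 10.8 and 15.3 at P2 (P2 29.5 times higher, 4.92 to 1203, 1 read at P28 against 31 at P2; adjusted p = 0.000397). The Slc6a17 and Macroh2a1 peaks named above were also lower at P28, with P2 signal 40.0 times (6.80 to 1617, 1 read against 42) and 20.9 times (5.46 to 178, 2 reads against 44) the P28 signal. The Nfia and Gfra1 peaks were not called for P10 against P4, and the Gfra1 call against P2 (-3.22 ± 0.66) was lost without P28 replicate 3 (-2.14, adjusted p = 0.0833).

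Among the 10 strongest later-intron peaks, the Esrrb peak alone was called for P10 against P4. Those in intron 4 of Ncoa2, a coactivator of nuclear receptors, and intron 4 of Ric8b, a chaperone and exchange factor of G alpha proteins, averaged 73.7 and 55.3 RPKM at P28 and 34.1 and 15.0 RPKM at P2. Ric8b passed the test over P2 by 1.91 ± 0.58 (adjusted p = 0.0313) and Ncoa2 did not (1.08 ± 0.57, adjusted p = 0.193). The Ric8b call was lost without P2 replicate 3, P28 replicate 3, P28 replicate 4 or either P10 library (adjusted p = 0.0592 to 0.257), and with libraries set to the same median (adjusted p = 0.0659). Peaks named for Sipa1l3, Ntm, Aak1, Camta1 (intron 3) and Mad1l1 were lower at P28 than at P10, with log2 differences of -2.06 to -1.64 (adjusted p = 0.0119 to 0.0412). Each of these 5 calls was lost without any 1 of the P10 and P28 libraries (adjusted p = 0.0601 to 0.344), except that the Aak1 call held without P28 replicate 4. With libraries set to the same median the Sipa1l3, Camta1 and Mad1l1 calls were lost (adjusted p = 0.0784, 0.0966 and 0.114). At the Ntm peak, in the last intron of the adhesion gene Opcml, P28 had 17.3 and 18.9 RPKM and P10 had 78.8 and 78.2. The peak in intron 4 of Sipa1l3, a Rap GTPase-activating protein, gave 61.4 and 74.4 RPKM (P2), 73.4 and 129 (P4), 169 and 123 (P10) and 31.6 and 63.1 (P28).

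**Figure D4:**
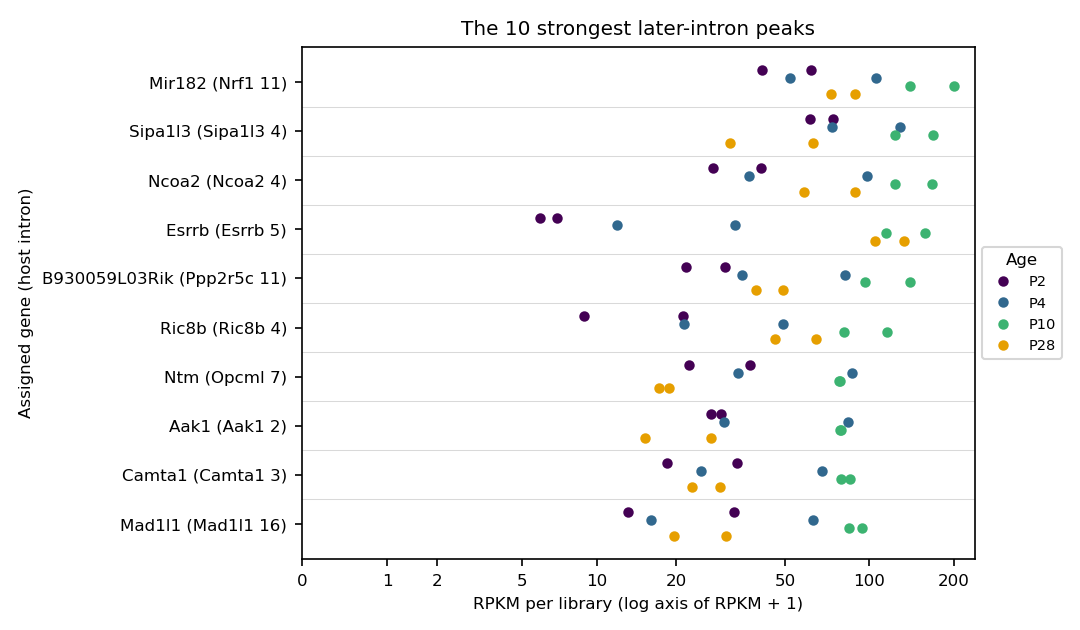
RPKM in each of 8 libraries is plotted on a log axis of RPKM + 1 for the 10 later-intron peaks with the highest mean signal, strongest at the top, with colour for age. Esrrb has low P2 libraries (5.93 and 6.97 RPKM) and high P10 and P28 libraries, and at Ntm both P28 libraries (17.3 and 18.9 RPKM) lie below all others.

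Later-intron peaks lay at few genes of each retinal list. Of 38 rod phototransduction and outer segment genes, 7 had 11 such peaks, and 6 of the 11 were called higher at P10 than at P4, 4 lower at P28 than at P10, and 6 higher and 1 lower at P28 than at P2. The called shares of all peaks were 15.6% higher, 20.7% lower, and 9.64% higher and 3% lower, in the same order. Those of later-intron peaks were 27.2, 41.9, 11.6 and 6.69%. The median differences of the 11 were 1.52, -1.02 and 1.56 in these comparisons, against 0.73, -0.69 and 0.57 over all peaks. Among later-intron peaks the medians were 1.04, -1.29 and 0.31. A difference between the list and its class was not tested. With libraries set to the same median, 2 of the 11 were higher at P10 than at P4. There were 1 higher and 1 lower at P28 than at P10, and 2 higher and 1 lower at P28 than at P2. Whichever library was left out, the call was kept by 1 of the 6 higher at P10 than at P4 (Gnb1), 1 of the 4 lower at P28 than at P10 (Cdhr1), and 2 of the 6 higher (Gnb1 and Pde6a intron 6) and the 1 lower (Cdhr1) at P28 than at P2.

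Pde6a, the alpha subunit of rod phosphodiesterase, had a peak in its intron 6 with 1.65 and 2.91 RPKM (P2), 2.22 and 6.25 (P4), 27.9 and 17.5 (P10) and 13.6 and 24.4 (P28). P28 exceeded P2 by 2.58 ± 0.57 (adjusted p = 0.00457), and P28 and P10 overlapped (-0.27 ± 0.57, adjusted p = 0.76). A peak assigned to Pde6a that lies in intron 3 of its neighbour Ppargc1b gave 2.58 and 5.00 RPKM at P28 and 17.9 and 19.1 at P10, a fall by 2.07 ± 0.56 (adjusted p = 0.0114, and 0.0984 without P28 replicate 3, 0.0688 without P10 replicate 1 and 0.0724 without P10 replicate 4). At Cdhr1 no read was left at P28, as described above, and it was the 1 peak of the list lower at P28 than at P2, with 3.31 and 10.0 RPKM at P2. The others called higher at P28 than at P2 included Rdh12, a retinol dehydrogenase (5.08 and 5.37 RPKM at P28, 0 and 1.56 at P2), a Prom1 peak, a disc protein (5.28 and 3.14, against 1.07 and 0.406), and the intron 13 peak of Abca4, a transporter of retinoids (7.31 and 5.41, against 1.19 and 1.79). The Rdh12 call was lost without P2 replicate 3 (adjusted p = 0.165), the Prom1 call without P2 replicate 4 (0.215), P28 replicate 3 (0.213) or P10 replicate 4 (0.0501), and the Abca4 call without any of P2 replicates 3 and 4, P28 replicate 3 and both P4 libraries (0.0638 to 0.144).

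Genes of photoreceptor transcription factors had 10 later-intron peaks at 5 of 22 genes: Esrrb, Casz1, Otx2, Mef2a and Nr2e3. Of these, 2 were called higher at P10 than at P4, both at Esrrb, and 5 lower at P28 than at P10, 2 with libraries set to the same median. Such calls were made for 15.6% and 20.7% of all peaks and for 27.2% and 41.9% of later-intron peaks. Whether the list differs from its class was not tested. The intron 6 peak of Esrrb lost its P10 call without P10 replicate 1 (adjusted p = 0.12) or P4 replicate 3 (adjusted p = 0.155), or with libraries set to the same median (adjusted p = 0.0894), and neither Esrrb call was kept under every omission. The Casz1 intron 11 call was kept whichever library was left out and the other 4 were not. Casz1, a zinc finger gene, had a peak in intron 11 with 2.52 and 6.08 RPKM at P28 and 58.5 and 57.3 at P10, a fall by 3.56 ± 0.58 (adjusted p = 0.000374). Otx2, the homeobox gene upstream of Crx, had 2 peaks about 67 kb away in intron 2 of Otx2os1, which lie within 1 kb of each other and so share their neighbourhood. The stronger one gave 11.2 and 10.5 RPKM at P28 and 50.9 and 41.0 at P10, a fall by 1.98 ± 0.56 (adjusted p = 0.0153), and both calls were lost without any 1 of the P10 and P28 libraries (adjusted p = 0.0557 to 0.173). The peak assigned to Nr2e3, the rod factor that NRL is known to switch on, had 0 to 5.30 RPKM over all libraries and passed in no comparison.

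**Figure D5:**
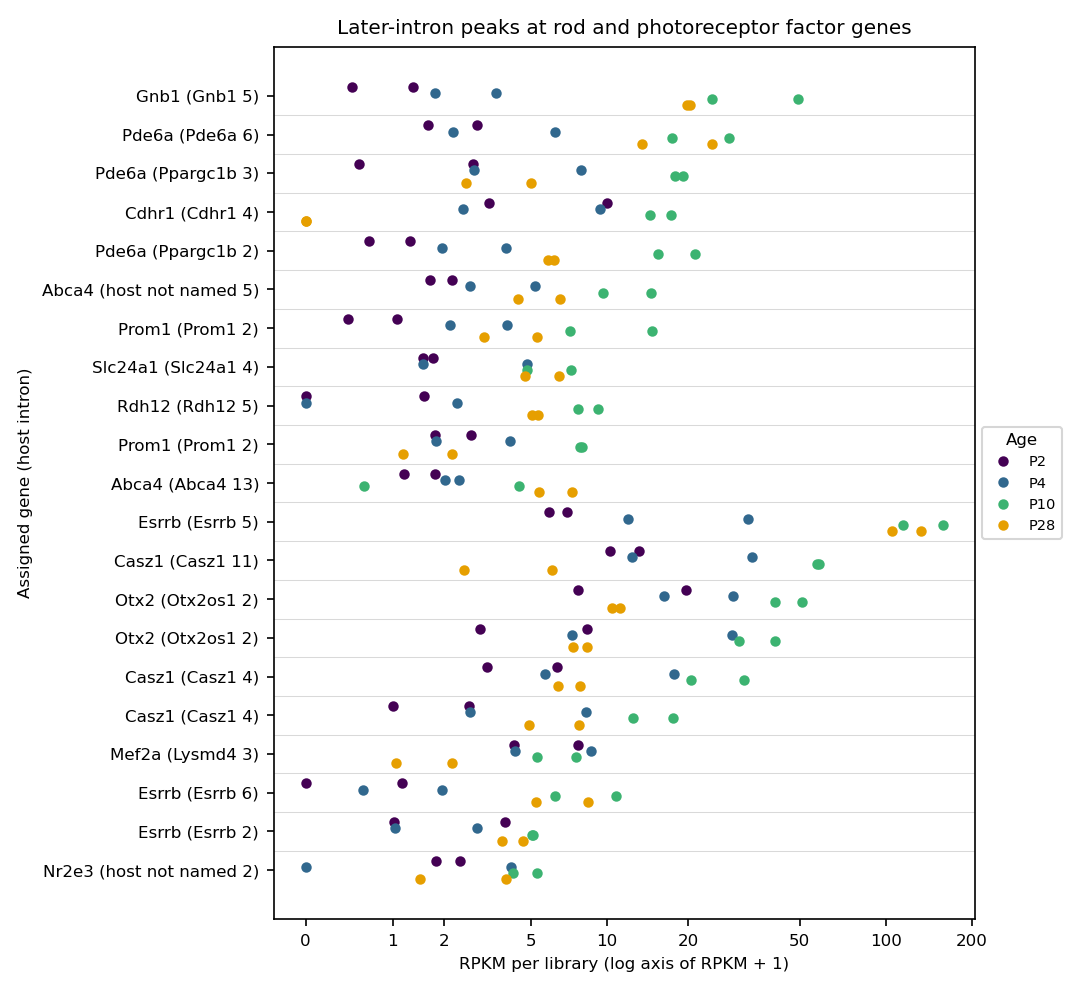
RPKM in each of 8 libraries, on a log axis of RPKM + 1, is plotted for 11 later-intron peaks at rod genes (upper rows) and 10 at photoreceptor transcription factor genes (lower rows), ordered by mean signal within each list, with colour for age. At the Cdhr1 peak both P28 libraries are at 0, and at the upper Casz1 peak they stand at 2.52 and 6.08 RPKM, against 58.5 and 57.3 at P10.

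Ciliary and synaptic genes had a few later-intron peaks. All 3 cilium genes with one, Bbs9, Ift122 and Arl3, encode trafficking proteins of the photoreceptor cilium. Of these peaks, 2 were called higher at P10 than at P4 and 2 higher at P28 than at P2. These calls were made for 15.6% and 9.64% of all peaks and for 27.2% and 11.6% of later-intron peaks. Ift122 gave 7.37 and 13.0 RPKM at P10 and 0.914 and 1.54 at P4, a gain of 2.30 ± 0.46 (adjusted p = 0.00249, 0.0542 without P4 replicate 3 and 0.0623 without P10 replicate 4). Its call for P28 against P2 was lost without P2 replicate 3 (adjusted p = 0.0684), P2 replicate 4 (0.0506) or P28 replicate 3 (0.1), or with libraries set to the same median (0.118). Arl3 gave 5.72 and 4.23 RPKM at P28 and 0 and 0.702 at P2, and its call was lost without P2 replicate 3 (adjusted p = 0.0621). Of 6 peaks at synapse genes, 1 was higher at P10 than at P4 and 4 were lower at P28 than at P10. The shares called so were 15.6% and 20.7% of all peaks and 27.2% and 41.9% of later-intron peaks. The one higher at P10, in an intron of Fgfr2 and assigned to Ctbp2, the gene of the ribbon protein Ribeye, gave 19.7 and 24.8 RPKM at P10 and 1.87 and 6.30 at P4 (2.34 ± 0.54, adjusted p = 0.00591, 0.0862 without P4 replicate 3 and 0.0628 without P10 replicate 4). At Nrxn3, an adhesion gene of synapses, one peak had 0 and 6.01 RPKM at P28 and 33.2 and 30.9 at P10 (-3.64 ± 0.71, adjusted p = 0.00194), the 1 call of the 4 kept whichever library was left out.

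Other retinal lists had few or none. Of all peaks, 15.6% were called higher for P10 against P4, 20.7% lower for P28 against P10 and 3% lower for P28 against P2. For later-intron peaks these shares were 27.2, 41.9 and 6.69%. The 3 peaks of the bipolar list all lie in Prkca, a marker of rod bipolar cells, and all 3 were called higher at P10 than at P4, with 0 called when libraries were set to the same median and each call lost without P4 replicate 3 (adjusted p = 0.0852 to 0.342). The strongest, in intron 2, gave 9.13 and 14.5 RPKM at P10 and 0.920 and 4.14 at P4. The progenitor list had 2 peaks, both in Nfia and both lower at P28 than at P10, of which the weaker lost its call without any 1 of the P10 and P28 libraries (adjusted p = 0.0643 to 0.283). The cone list had 1 at Gulo, and the amacrine, horizontal and ganglion cell list 2. The Gulo peak and 1 of the other list, at Slc6a9, were lower at P28 than at P10, and lost their calls without P10 replicate 1 (adjusted p = 0.338 and 0.107), P10 replicate 4 (0.12 and 0.0639) or P28 replicate 3 (0.205 and 0.0917), and Gulo also without P28 replicate 4 (0.155). No later-intron peak was at a gene of the Müller glia, microglia and vessel or pigment epithelium lists. The 4 peaks at genes of bZIP factors were at Creb1, Bach2 (2 peaks) and Cebpa, and 1, at Cebpa, passed the test. It gave 0 and 1.63 RPKM at P28 and 6.27 and 7.57 at P2, so that P2 was 8.57 times higher (exact 95% interval 2.05 to 76.2, 2 reads at P28 against 18 at P2; adjusted p = 0.0113, 0.161 without P28 replicate 3). The chromatin modifier list had 6 peaks at 4 genes. A peak in intron 19 of Crebbp, the gene of a histone acetyltransferase, gave 9.55 and 9.18 RPKM at P10 and 2.75 and 0 at P4 (2.42 ± 0.54, adjusted p = 0.00557). That call was lost without P10 replicate 1 (2.39, adjusted p = 0.0555) or P4 replicate 4 (1.47, adjusted p = 0.0524), or with libraries set to the same median (adjusted p = 0.146). One in intron 3 of Arid1b, a subunit of the BAF remodelling complex, gave 1.05 and 3.32 RPKM at P28 and 12.8 and 11.8 at P10 (-2.16 ± 0.57, adjusted p = 0.0105). That call was lost without P28 replicate 3 (adjusted p = 0.0897) or P10 replicate 1 (adjusted p = 0.0699), or with libraries set to the same median (adjusted p = 0.0714). The glycolysis list had 1 peak, at Hk1, which passed in no comparison.

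Called shares by position along the gene are given as a description, with no test. Higher signal at P10 than at P4 was called for 34.2% of peaks in intron 2, 23.3% in introns 3 to 5 and 25.5% in intron 6 or later. By distance it was called for 31.2% at 3 to 10 kb, 26.2% at 10 to 50 kb and 24.4% beyond 50 kb. Lower signal at P28 than at P10 was called for 39.7, 42.4 and 43.0% by intron and for 42.4, 41.4 and 42.4% by distance, in the same orders.

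Several genes held a row of later-intron peaks, which share their host and are not replicates. With 5 or 6 each, Atp8a2, Dscaml1, Msi2, Msra, Pard3, Pitpnm3 and Sipa1l3 held the most. Msi2 encodes an RNA-binding protein that is abundant in photoreceptors, and 4 of its 6 peaks were called higher at P10 than at P4 and 3 lower at P28 than at P10. Such calls were made for 15.6% and 20.7% of all peaks and for 27.2% and 41.9% of later-intron peaks. With libraries set to the same median 1 of the 4 and 2 of the 3 were called, and under every omission of 1 library 1 of the 4 and 0 of the 3 were kept. Values are given for 2 of the peaks. In intron 8, a peak assigned to Mir378b (chr11:88404340-88404580) gave 2.09 and 3.16 RPKM (P2), 0 and 1.19 (P4), 13.7 and 10.4 (P10) and 23.8 and 38.0 (P28). Both P28 libraries were the highest of the 8, and P28 exceeded P2 by 3.12 ± 0.54 (adjusted p = 0.000642), a call kept whichever library was left out, while P28 over P10 did not pass (1.27 ± 0.54, adjusted p = 0.0899) except with libraries set to the same median (1.87, adjusted p = 0.0123). In intron 6, a peak (chr11:88541794-88542047) gave 1.49 and 2.25 RPKM (P2), 3.00 and 1.69 (P4), 20.5 and 11.8 (P10) and 1.83 and 3.87 (P28). It fell by 2.16 ± 0.50 at P28 against P10 (adjusted p = 0.00422, 0.0869 without P10 replicate 1 and 0.0619 without P28 replicate 3). At Sipa1l3 1 of 6 peaks was higher at P10 than at P4 and 4 were lower at P28 than at P10, and none of these calls was kept under every omission of 1 library. With libraries set to the same median the higher one was called and 0 of the 4 lower ones.

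Among the 25 peaks assigned to microRNA genes, 3 were called higher and 1 lower at P10 than at P4, 9 lower at P28 than at P10, and 1 higher and 2 lower at P28 than at P2. Over all peaks 15.6% were higher and 1.51% lower at P10 than at P4, 20.7% were lower at P28 than at P10, and 9.64% higher and 3% lower at P28 than at P2. The shares of later-intron peaks were 27.2, 3.13, 41.9, 11.6 and 6.69% in the same order. Under every omission of 1 library, 1 of the 3 higher and 0 of the 1 lower were kept for P10 against P4, 3 of the 9 for P28 against P10, and 1 of the 1 higher and 1 of the 2 lower for P28 against P2. The peak assigned to Mir138-1, in intron 2 of 9530059O14Rik (chr9:122667548-122667828), gave 8.07 and 17.6 RPKM (P2), 11.3 and 24.4 (P4), 20.7 and 24.0 (P10) and 1.10 and 0.583 (P28). Both P28 libraries lay below all others, and the P10 signal was 26.5 times the P28 signal (exact 95% interval 8.80 to 131, 3 reads at P28 against 91 at P10; adjusted p = 0.000233). That call and the one against P2 (adjusted p = 0.00204) were kept whichever library was left out.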

How the data were processed

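NRL CUT&RUN libraries of mouse retina at 4 ages were analysed from the peak table. Per the submitters' processing notes, the tools were MACS2 2.2.5, Bowtie2 2.3.5.1, bedtools 2.29.0, Picard 2.20.8, Trimmomatic 0.38 and SAMtools 1.9, and the builds GRCm38.p6 and ASM584v2. Their roles, and any pooling of replicates for the 4 peak lists, were not given in the sources used here. The table's values are RPKM per peak and library, computed by the authors. The peak lists give the signal of each peak and a score, as deposited, and only the signal was used, to rank peaks within a list.

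The deposited RPKM values had been divided by peak widths shifted by 39 rows in each successive library. Multiplying by that shifted width and the library scale gave whole reads for 100% of values, within 0.001, and RPKM was recomputed with each peak's own width. For 39 values in each of 7 libraries the divisor was not in the table and the smallest width giving whole reads was used (38 of the 39 divisors had several solutions). Intervals and limits of 3 reads cover counting error only.

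Ages were compared with limma 3.58.1 (R 4.3.3) on log2(RPKM + 1), with a mean-dependent prior and robust fitting, on all 8996 peaks with Benjamini-Hochberg adjustment. The test was checked on simulated data in which only peaks with higher read counts were changed and no library was shifted as a whole. That check does not cover changes at peaks with few reads, or such shifts. Shares of reads were tested with two-sided exact permutation tests over libraries. Other steps used SciPy 1.17.1, pandas 2.3.3, NumPy 2.4.6 and Matplotlib 3.10.9 in Python 3.11.15. Alternatives were a pseudocount of 0.1, a filter at a mean of 2 RPKM, centring each library, a replicate block, leaving out each library and limma-voom on the recovered reads, the last chosen after seeing the data. Count models were planned but not run, since the deposited unit is RPKM.

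Peaks named were the 10 with the highest mean. In each comparison, among called peaks with a mean at or above the median of the later-intron peaks and no overlap between the libraries, the 6 highest and 6 lowest differences were also named (8 and 8 for P28 against P2), 1 per assigned gene. With none called, the lowest unadjusted p-values were used. Up to 4 peaks per gene list were named by mean, and the further peaks of Esrrb, Msi2, Map3k13, Eml6 and the microRNA genes were chosen after their values were seen. The members, gene lists and comparisons were chosen with earlier results of these data known.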

Additional observations from a re-analysis of the deposited data

How the results depend on the processing

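With a pseudocount of 0.1 the calls numbered 5 for P4 against P2, 4 for P10 against P4, 144 for P28 against P10 and 77 for P28 against P2, and with the RPKM values as deposited 125, 227 and 75 for the last 3. Centring each library on its median left 139 calls for P10 against P4 and 275 for P28 against P10. For P4 against P2 there were 6 calls with a filter at a mean of 2 RPKM, and 4 and 8 with limma-voom on the library scale and on reads in peaks. The last gave 261 for P28 against P10. Leaving out 1 library gave 0 to 183 calls for P4 against P2, 51 to 564 for P10 against P4, 150 to 605 for P28 against P10 and 127 to 285 for P28 against P2. The cause was not tested. Correlations of same-numbered deviations ran from -0.0128 to 0.0853. They leave out any shift of a whole library, so they cannot decide whether replicate numbers pair the samples. Replicate 4 stood above replicate 3 at more later-intron peaks at P2 (686 against 443), P4 (991 against 156) and P28 (641 against 500). With a replicate block there were 24, 47 and 133 calls for the first 3 comparisons, and 215 for P28 against P2, where the main fit gave 211. Replicate number 1 occurs only at P10, so the block fits that library by itself and it adds nothing to the age differences. The median difference became 0.83 for P10 against P4 (1.04 in the main fit) and -1.06 for P28 against P10 (-1.29). The counts for P10 therefore do not show whether replicate numbers pair the samples.

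With median log2 values the share difference between P28 and P10 was -0.61, and the test across the 4 ages passed (exact permutation test, p = 0.00952). The ratio difference between P28 and P2 was -0.11, and the test across the 4 ages did not pass (exact permutation test, p = 0.0571). No pair of ages was tested by itself. Beyond 10 kb the share difference between P28 and P10 was -2.68 (exact permutation test across the 4 ages, p = 0.171). Leaving out 1 library gave -4.27 to -3.32 points for the share and -0.19 to -0.13 for the ratio. Using the 1221 strongest peaks of each list changed the counts at P4, P10 and P28 to 186, 228 and 124 (16.2, 19.8 and 10.8%, against 13.6% of all peaks at each age). Of the 35 differences named as highest or lowest in their comparison, none turned its direction. All 35 passed with centring, with the filter and with voom on reads in peaks, 34 with voom on the library scale, 31 with the block, 29 with deposited values and 20 with a pseudocount of 0.1. The 35 were chosen as called peaks with the largest differences and no overlap between libraries. Their results are therefore partly fixed by the choice and do not stand for all later-intron peaks. Other called peaks in the text did not all pass with centring. Counting error weighs most on peaks with few reads, and the median was 3 or 4 reads per peak at P2 and P28.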
